A study of Homo sapiens with 6 samples.

Results

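Mitochondrial ribosomal protein genes are nuclear genes whose products build the ribosome of mitochondria. They were taken as the rows of the expression table whose symbol is MRPL or MRPS followed by a number and at most 1 letter, which gave 76 of the 19823 genes listed. The measurements came from glutamatergic excitatory neurons (iNeurons) derived from the parental WTc11 line of human induced pluripotent stem cells. All 6 samples carried RBM12 knockdown, which depletes an RNA-binding protein, and 3 were untreated while 3 received isoproterenol, an agonist of the β2-adrenergic receptor that raises cAMP. Per the study's methods, the stem cell line is clonal, silences genes through an inactive Cas9 fused to the KRAB repressor, turns into neurons through doxycycline-induced NGN2 and carries few native β2-adrenergic receptors. The labels give no dose or duration, samples with a control guide were not analysed here, and nothing says whether replicates were separate cultures, so p-values measure only the spread between these samples.

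The mitochondrial ribosome translates the few mRNAs that the mitochondrial genome encodes, all for subunits of the oxidative phosphorylation complexes. Its small subunit reads the mRNA and its large subunit joins the amino acids and releases the new chain through an exit tunnel at the inner membrane. The rRNAs are made inside the organelle, whereas every ribosomal protein is made in the cytosol from a nuclear transcript and imported. Neurons depend heavily on oxidative phosphorylation, and inherited defects of several of these proteins cause mitochondrial disease.

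With isoproterenol, the members as a set shifted little. Values here are normalized counts, that is reads of a gene divided by the size factor of the sample, given in the order of replicates 1, 2 and 3, and changes are log2 fold changes of isoproterenol over untreated samples. The fitted change was below 0 in 50 members and above 0 in 26, with a median of -0.046, and it ran from -0.28 for MRPL12 to 0.22 for MRPL38. Over all 18130 genes tested, 49.5% were lower and the median was 0.0015. Leaving out untreated replicate 3 brought the median of the members to -0.017, and leaving out isoproterenol replicate 2 brought it to -0.022. Within same-numbered pairs 1, 2 and 3 the median was -0.0057, -0.033 and -0.046, with 39, 43 and 52 members lower.

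All 76 members had enough reads to be tested, and 0 passed FDR 0.05 in limma without regard to pairs, where 0.0165% of all genes passed. The smallest adjusted p was 0.481, for MRPL42. At an unadjusted p under 0.05, 3 members (3.95%) were lower (MRPL42, MRPS27 and MRPL24), against 3.29% of all genes, and 0 were higher. By DESeq2 and by edgeR without the pairs, 0 members passed as well. With replicate number as a block, MRPL42 and MRPS27 (2.63% of members) fell in limma and in edgeR, while 0 members rose. By DESeq2 with the block 0 members passed, and 2 had an unadjusted p under 0.05. The shares called over all genes were 2.06% lower and 2.82% higher with the block.

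In 7 members (9.21%) the 3 isoproterenol values all lay below the 3 untreated ones, where 6.19% of all genes did so, and in 3 members (3.95%) they lay above, against 6.73%. Those with separate lower values were MRPL18, MRPL24, MRPL35, MRPL42, MRPS22, MRPS27 and MRPS31, and those with separate higher values were MRPL40, MRPL48 and MRPS18A. In 19 members (25.0%) each of the 3 pairs was lower, where 17.6% of all genes were, and in 5 (6.58%) each pair was higher, against 18.5%.

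**Figure D1:**
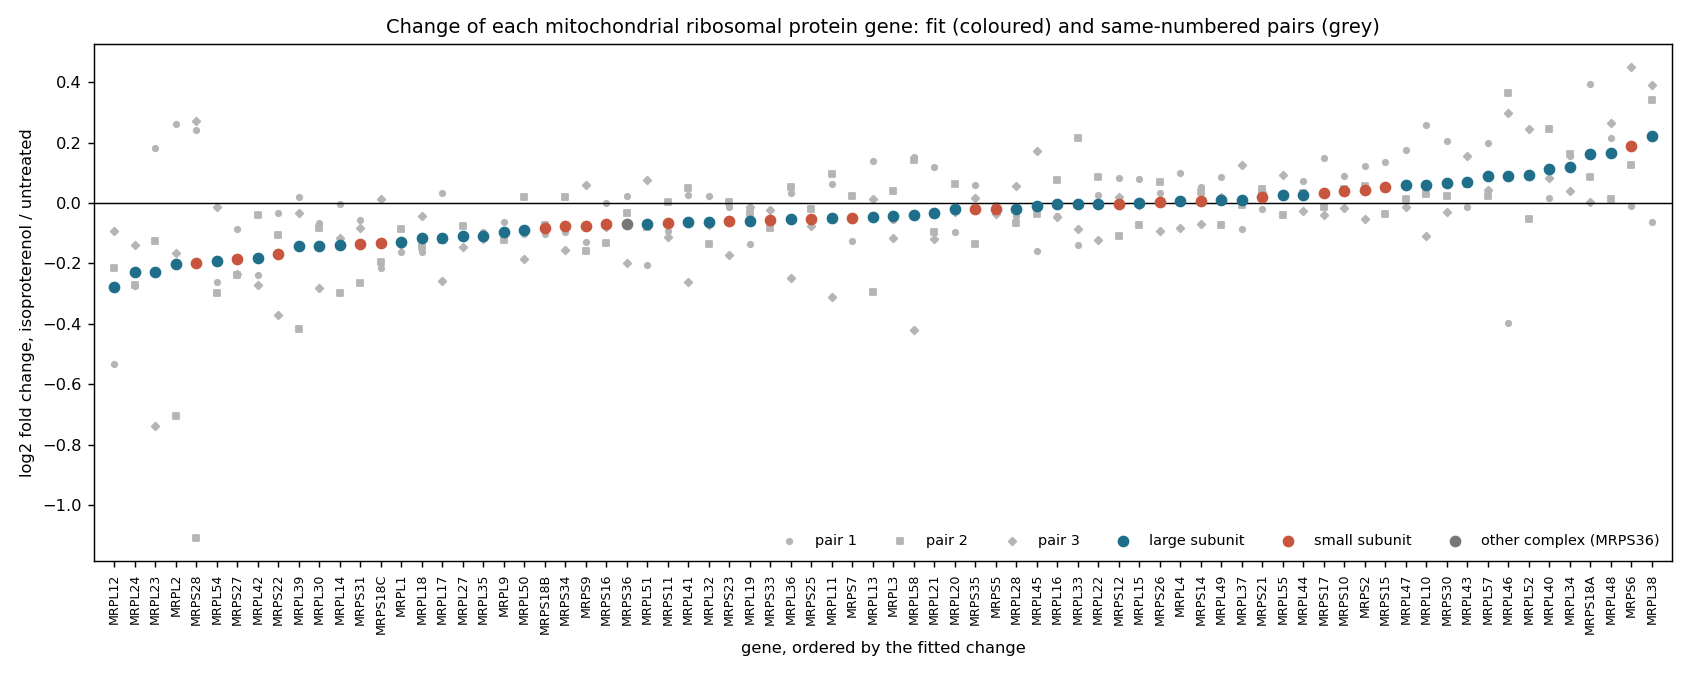
Log2 fold change of each of the 76 members (vertical axis) in order of the fitted change (horizontal axis), with the fit in colour by subunit and the 3 same-numbered pairs in grey. Fitted values run from -0.28 (MRPL12) to 0.22 (MRPL38), 50 of them below 0, and the pairs of the members with the fewest counts scatter most widely.

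The summed level of the members was likewise nearly level between groups. Together they held 44044, 44064 and 44999 normalized counts without and 43582, 42973 and 43388 with isoproterenol. These sums were 0.211%, 0.212% and 0.214% of all counts in untreated samples and 0.209%, 0.206% and 0.208% in isoproterenol samples. All 3 isoproterenol sums lay below the untreated ones. Relative to each gene's untreated mean, the median member stood at -0.013, -0.0028 and 0.017 (log2) in the untreated samples. In the isoproterenol samples it stood at -0.028, -0.030 and -0.029. The SD between replicates, pooled over the groups, was 0.011, but the untreated values spread far more widely than the isoproterenol ones. Over all genes tested the same medians were 0.0045, 0.00026 and 0.0026 in untreated and 0.0072, 0.0069 and 0.0021 in isoproterenol samples.

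The libraries held 18116816 to 21488793 recovered reads, of which 3.44% to 4.54% came from mitochondrial genes. Untreated replicate 3 had the highest mitochondrial share, 4.54%, and its part in the medians above was not tested. RBM12, the targeted gene, stood at 244.3, 278.7 and 266.9 normalized counts without and 194.6, 237.6 and 232.8 with isoproterenol. These values did not overlap but did not pass the test (log2 fold change -0.25, SE 0.11; limma adjusted p 0.607, and 0.131 with the block). Of 9 neuronal markers all were tested, with means from 49.3 (NEUROG2) to 65418 (STMN2). SLC17A6 (12393 to 14710) and SLC17A7 (2968 to 3318), the vesicular glutamate transporters, mark glutamatergic cells, and most of the others mark neurons in general. TUBB3 was low at 69.2 to 94.4 and shares 92.8% of its canonical transcript with another annotated gene on the same strand. The 9 markers summed to 174480 to 178732 in untreated and 174091 to 179906 in isoproterenol samples. SYT1 fell with the block (log2 fold change -0.075; limma adjusted p 0.0010). Without pair 3 its log2 fold change was -0.065 (limma adjusted p 0.0756), and in DESeq2 with the block its adjusted p was 0.236. Of other cells, 3 GABAergic markers summed to 55.3 to 60.0 counts in untreated and 66.9 to 79.0 in isoproterenol samples. In every pair GAD1 and GAD2 were higher (log2 fold change 0.74 and 0.49) and SLC32A1 lower (-0.38), with limma adjusted p of 0.650 or more. The 2 of 4 astrocyte markers in the table (AQP4, S100B) summed to 159.8 to 175.1 in untreated and 134.4 to 156.8 in isoproterenol samples. LIN28A (9.2 to 18.6) and POU5F1 (1.0 to 10.4) were the 2 of 4 pluripotency markers in the table, and CCNB1 (112.2 to 147.2) the 1 of 4 proliferation markers. In bulk RNA, fewer cells of a type and less RNA per cell cannot be told apart, and the part of these cells in the members' values was not tested.

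MRPL42 (ENSG00000198015; chromosome 12, 93467514 to 93516214, GRCh38) encodes a large subunit protein with no bacterial counterpart. It had 1288, 1300 and 1301 normalized counts without and 1091, 1266 and 1077 with isoproterenol. The untreated values lay close together (1296 ± 7.76, SD, n = 3) and all isoproterenol values lay below them, with replicate 2 nearest (1145 ± 106, n = 3). The log2 fold change was -0.18 (SE 0.063; limma adjusted p 0.481) and MRPL42 fell with the block (SE 0.046; adjusted p 0.0062). The call was lost without pair 1 (log2 fold change -0.16; limma adjusted p 0.103) and without pair 3 (-0.14; 0.218), fits that also have fewer samples. It was lost in DESeq2 with the block too (adjusted p 0.424), whereas edgeR with the block kept it (0.0031). The annotation holds 5 named MRPL42 pseudogenes, 0 of them in the table, so the assignment of some of its reads is uncertain.

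MRPS27 (ENSG00000113048; chromosome 5, 72214953 to 72321717) encodes a small subunit protein of the pentatricopeptide repeat type, a fold that binds RNA. Its values were 800.9, 930.9 and 934.1 normalized counts without and 755.4, 788.8 and 792.9 with isoproterenol. Each isoproterenol value lay below every untreated value, with untreated replicate 1 only just above. The log2 fold change was -0.19 (SE 0.069; limma adjusted p 0.539), and MRPS27 fell with the block (adjusted p 0.0242). This call too was lost without pair 2 (log2 fold change -0.16; limma adjusted p 0.185) and without pair 3 (-0.16; 0.237). It was also lost in DESeq2 with the block (adjusted p 0.589), and it held in edgeR with the block (0.0155).

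MRPL24 (ENSG00000143314; chromosome 1, 156737303 to 156741590), a protein beside the exit tunnel, had the largest fitted decrease among members with over 100 counts. It went from 380.1, 373.5 and 356.9 normalized counts to 314.3, 309.1 and 324.1, a clear gap between the groups in these samples. Even so it did not pass (log2 fold change -0.23, SE 0.086; limma adjusted p 0.548, and 0.093 with the block). MRPL12, the stalk protein that contacts translation factors, had 48.03, 59.02 and 56.90 counts without and 32.93, 50.7 and 53.3 with isoproterenol. Its groups overlapped, and its log2 fold change of -0.28 (SE 0.22; limma adjusted p 0.807) was -0.064 without isoproterenol replicate 1. MRPL54, also near the stalk, had 219.3, 265.1 and 225.5 counts without and 182.6, 215.7 and 223.6 with isoproterenol (-0.19, SE 0.12; limma adjusted p 0.735).

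Among members higher in every pair, MRPL48 and MRPS18A had the largest changes. MRPL48, a large subunit protein, went from 303.9, 317.4 and 277.2 normalized counts to 353.2, 320.6 and 333.4, so that the groups were separate but nearly touched, and the difference did not pass (log2 fold change 0.17, SE 0.093; limma adjusted p 0.700). MRPL34, a homolog of a bacterial large subunit protein, had 724.7, 612.5 and 731.4 counts without and 807.2, 685.0 and 751.9 with isoproterenol (0.12, SE 0.080; adjusted p 0.771). MRPL40 had 326.8, 302.9 and 323.8 and then 330.3, 358.7 and 342.6 (0.11, SE 0.088; adjusted p 0.800). MRPL57 had 618.2, 596.1 and 618.6 and then 709.5, 605.5 and 637.0 (0.088, SE 0.073; adjusted p 0.817). In all of these the difference within at least 1 pair was under 0.05 (log2), and limma's adjusted p with the block was 0.285 or more.

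**Figure D2:**
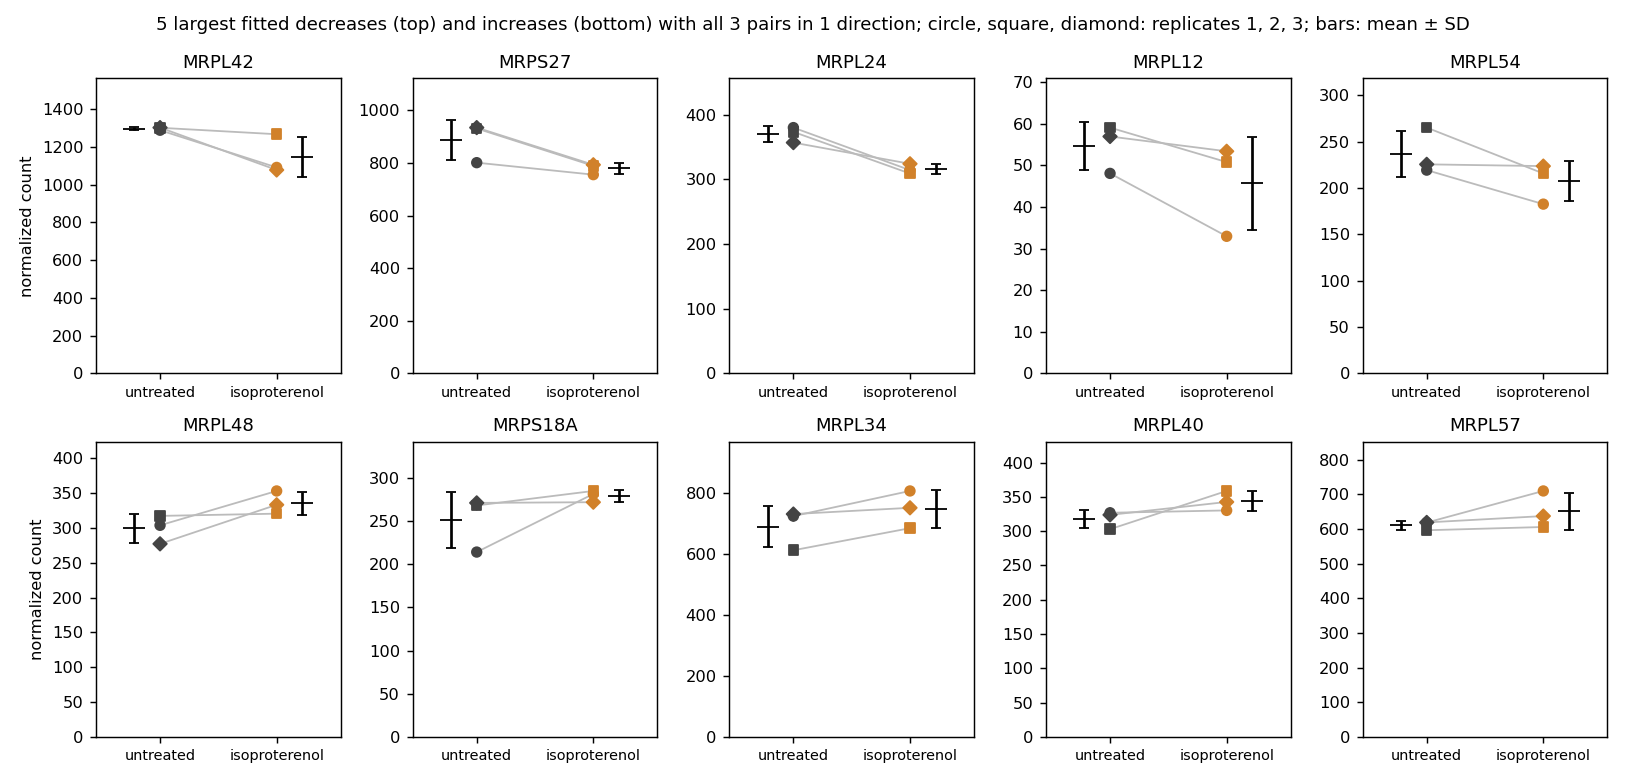
Normalized counts (vertical axes, from 0) of 10 members in untreated and isoproterenol samples, with lines joining same-numbered replicates and bars for mean and SD (n = 3). MRPL42, MRPS27 and MRPL24 show separate groups below the untreated values, whereas MRPL12, MRPL54, MRPL34 and MRPL57 overlap between the groups.

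The 3 paralogs of the bacterial S18 protein did not move alike in sign. MRPS18A, whose product sits in the large subunit in spite of its name, had 214.1, 268.0 and 271.0 normalized counts without and 281.4, 284.9 and 271.8 with isoproterenol. MRPS18B had 894.9, 1005 and 910.3 without and 833.2, 956.1 and 865.7 with isoproterenol, and MRPS18C had 464.7, 467.4 and 436.5 and then 400.1, 408.3 and 441.1. The log2 fold changes were 0.16 (SE 0.11), -0.083 (SE 0.068) and -0.13 (SE 0.080), with limma adjusted p of 0.764, 0.813 and 0.734, and the difference between paralogs was not tested. MRPS18A lay higher and MRPS18B lower in every pair, and MRPS18C lay lower in pairs 1 and 2.

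Other members with distinct roles stayed near their untreated level. MRPS12, a protein of the decoding centre, averaged 239.5 ± 8.5 without and 239.0 ± 8.3 with isoproterenol (SD, n = 3 each). MRPL44, which has a ribonuclease III-like fold, averaged 665.6 ± 9.0 and 678.7 ± 15.1. MRPL58, a peptidyl-tRNA hydrolase built into the large subunit, averaged 155.7 ± 10.6 and 152.5 ± 23.9. Its sign depended on single samples: the log2 fold change was -0.040, and 0.095 without isoproterenol replicate 3. MRPS30, named for the small subunit but placed in the large, averaged 711.5 ± 20.8 and 745.6 ± 42.5 (log2 fold change 0.066). MRPS36 matches the naming rule but its protein belongs to the 2-oxoglutarate dehydrogenase complex, and it averaged 482.8 ± 34.2 and 459.6 ± 25.3 (-0.070).

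Grouped by place in the ribosome, 32 of 50 large subunit members were lower, with a median of -0.036, and 17 of 25 small subunit members were, with a median of -0.052. For the large subunit, leaving out untreated replicate 3 gave a median of -0.0087 and leaving out isoproterenol replicate 2 gave -0.022. For the small subunit, the median became -0.029, -0.031 and -0.017 when untreated replicate 1, untreated replicate 2 or isoproterenol replicate 2 was left out. Proteins of bacterial families were lower in 33 of 46 cases (median -0.048), and those found only in mitochondrial ribosomes in 16 of 29 (median -0.020). Of the 6 exit tunnel proteins, 5 were lower (-0.062), as were 3 of 4 at the stalk (-0.12). Within pairs 1, 2 and 3, 24, 27 and 34 large subunit members were lower, and 15, 15 and 17 of the small subunit. The counts were 23, 27 and 35 for bacterial and 16, 15 and 16 for mitochondrial families. They were 2, 4 and 5 at the exit tunnel and 2, 2 and 4 at the stalk. The 12 members listed here as linked to inherited mitochondrial disease, a list that may not be complete, included 9 lower ones, with a median of -0.057. In pairs 1, 2 and 3, 7, 5 and 11 of these 12 were lower. The 2 members that fell with the block (2.63%, against 2.06% of all genes) belong to the mitochondrial families, 1 in each subunit. So few calls describe neither a family nor a subunit.

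The replicates of a member differed about as much as those of other genes. Over the 70 members averaging at least 100 counts, the median coefficient of variation was 4.72% in untreated and 5.52% in isoproterenol samples. Over all 11587 genes above that mean it was 5.30% and 5.31%. The median member had 543.9 normalized counts, and the lowest mean was 20.9 (MRPL2).

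Levels of members were compared as normalized counts per kb of the canonical transcript. MRPS21, of the small subunit, had the highest level with 1581 per kb, followed by MRPL41 (1153), MRPL34 (940.8), MRPL51 (898.1) and MRPL3 (890.0), all of the large subunit. MRPS21 had 1746, 1628 and 1737 normalized counts without and 1720, 1679 and 1782 with isoproterenol. The annotation holds 8 named MRPS21 pseudogenes, so the assignment of some of its reads is uncertain too, as with the 5 of MRPL57. MRPL3, a disease gene, had 1564, 1460 and 1607 and then 1506, 1502 and 1482, and MRPL51 had 838.5, 805.1 and 830.7 and then 727.4, 762.3 and 875.0. MRPL41 had 623.4, 639.6 and 798.6 and then 634.6, 662.0 and 666.7, its untreated replicate 3 standing above the rest. The ribosome holds most of its proteins in equal number, whereas the transcript level differed widely between members, from 17.2 per kb at the lowest. Among the 63 members whose canonical transcript shares no base with another gene on the same strand, the lowest level was 85.6 per kb. The order depends on the length used: per kb of all annotated exons MRPL41 (1153) stood just above MRPS21 (1143), and 3 of these 5 remained among the 5 highest, without MRPL34 and MRPL3. MRPL42 had 78.5 per kb, over a canonical transcript of 15557 bases.

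The lowest levels were those of MRPL2 (17.2 per kb), MRPS28 (26.2), MRPL38 (29.0), MRPL46 (32.7) and MRPL12 (49.7). These 5 genes share 52.1%, 56.2%, 94.3%, 73.4% and 69.5% of their canonical transcript with another annotated gene on the same strand. MRPL2 averaged 22.3 ± 7.2 normalized counts without and 19.4 ± 7.0 with isoproterenol (SD, n = 3 each), and MRPS28 averaged 23.5 ± 7.2 and 20.5 ± 6.9. MRPL38 had 34.5, 42.6 and 31.0 and then 32.9, 54.2 and 41.0, and MRPL46 had 34.5, 33.9 and 24.8 and then 25.9, 43.8 and 30.8. At such counts the groups overlapped in all 5, and no direction can be read. The 6 members that share over 50% of their transcript had a median of 30.9 per kb, the 7 that share less 198.5 and the 63 that share none 417.9. Per kb of all annotated exons, 4 of the 5 remained the lowest, with MRPL23 (19.4, 0% shared) in place of MRPL12. MRPS5 is the exception among the 6, with 97.1% shared and 299.4 per kb. The same-strand genes that these 6 share with are not in the expression table. Sharing was read from GENCODE release 44, and the release used for counting is not given, so a shared gene may not have been counted. Counting programs can drop reads that fall in several genes. The setting used is not given in the sources used here, and its part in these levels was not tested. In the 63 members that share no base, 41 were lower, with a median of -0.040.

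**Figure D3:**
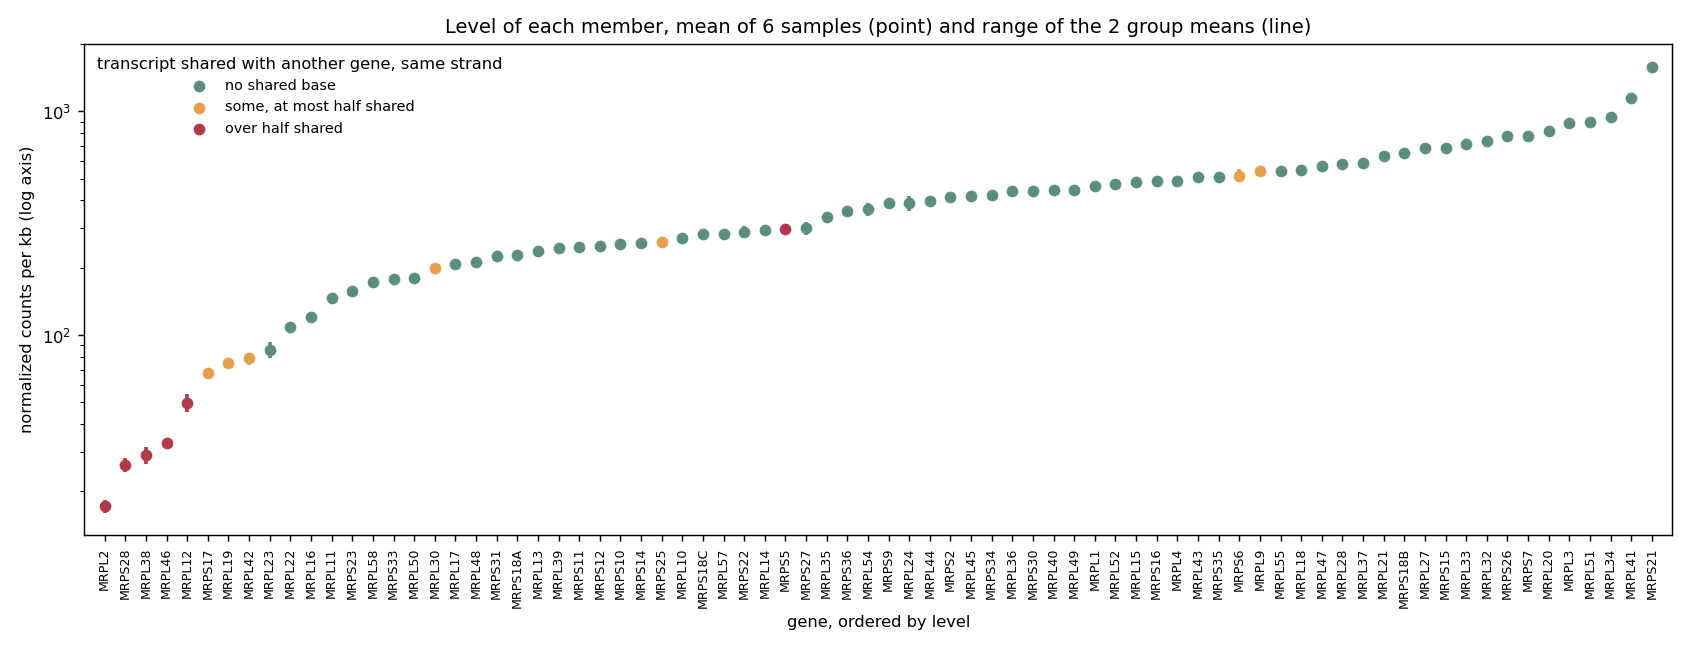
Level of each member in normalized counts per kb of canonical transcript (vertical log axis), ordered from lowest to highest, coloured by how much of the transcript another gene on the same strand shares. The 5 members at the low end, from 17.2 to 49.7 per kb, all share over 50%, and MRPS5 at 299.4 is the other member of that class.

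MRPS6, a small subunit protein, illustrates the sharing. It had 504.3, 403.5 and 436.5 normalized counts without and 500.9, 440.5 and 596.0 with isoproterenol (log2 fold change 0.19, SE 0.11; limma adjusted p 0.710, and 0.130 with the block). It shares 33.1% of its canonical transcript with other genes on the same strand, SLC5A3 among them, which encodes a myo-inositol transporter. SLC5A3 had 3062, 2199 and 2782 counts without and 3750, 3062 and 3402 with isoproterenol, and it rose with the block (log2 fold change 0.35; limma adjusted p 0.669 without and 3.64e-15 with the block). With the block, MRPS6 rose only when pair 1 was left out (log2 fold change 0.29; limma adjusted p 0.0333), and without pair 3 its log2 fold change was 0.058. Both genes were singled out after their values were seen, and the part of SLC5A3 in the value of MRPS6 was not tested.

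Many of these genes share a start region with a neighbour. In 27 of 76 members (35.5%) a protein-coding gene on the opposite strand started within 1000 bases, head to head, against 17.0% of the 13783 protein-coding genes tested. MRPL46 and MRPS11 form such a pair of members, with annotated starts 63 bases apart. MRPS11 averaged 862.2 normalized counts without and 823.3 with isoproterenol, while MRPL46 had 24.8 to 43.8. Of the 23 neighbours tested beside a member, 7 were lower together with it and 1 was higher together with it. The others, most of the 23, changed in the opposite direction to their member. MRPL46 and MRPS11 count among the 23 as each other's neighbour. Among the 27 members with such a neighbour, 20 were lower, with a median of -0.062.

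Promoters in the RefSeq table (GRCh38.p14), from 250 bases before to 50 after the start, matched 67 of the 76 members, and letters of known elements were looked for on both strands. The full cAMP response element (TGACGTCA), which CREB binds, was in 0 of 67 member promoters, in 3.16% of those of 11682 tested genes and in 1.85% of all 35116 promoters in the table. Its core TGACG, which the full element contains, was in 23 members (34.3%), against 33.5% and 24.6%. The ETS letters CCGGAAG, of the kind GABPA binds, were in 28 members (41.8%), against 17.7% of tested genes and 10.3% of all promoters. The letters of NRF1 (GCGCANGCG) were in 13 members (19.4%; 13.9% and 7.52%) and the GC box (GGGCGG) in 40 (59.7%; 68.6% and 45.0%). YY1 letters (ATGGCGG) were in 23 members (34.3%), against 9.62% and 5.55%. In 15 members the ATG of these letters is an annotated start codon (22.4% of members and 3.28% of tested genes), so that they are also the first codons of the protein. Away from annotated start codons, 9 members (13.4%) held a match, against 6.55% of tested genes. Besides the core within the full element, the motifs can overlap by a few bases at their ends. Members with and without the ETS letters had median changes of -0.019 and -0.051, and those with and without the YY1 letters -0.020 and -0.046. With the NRF1 letters the order was the other way, with medians of -0.054 and -0.030. It was -0.020 and -0.047 for the core TGACG and -0.019 and -0.052 for the GC box, and these differences were not tested.

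**Figure D4:**
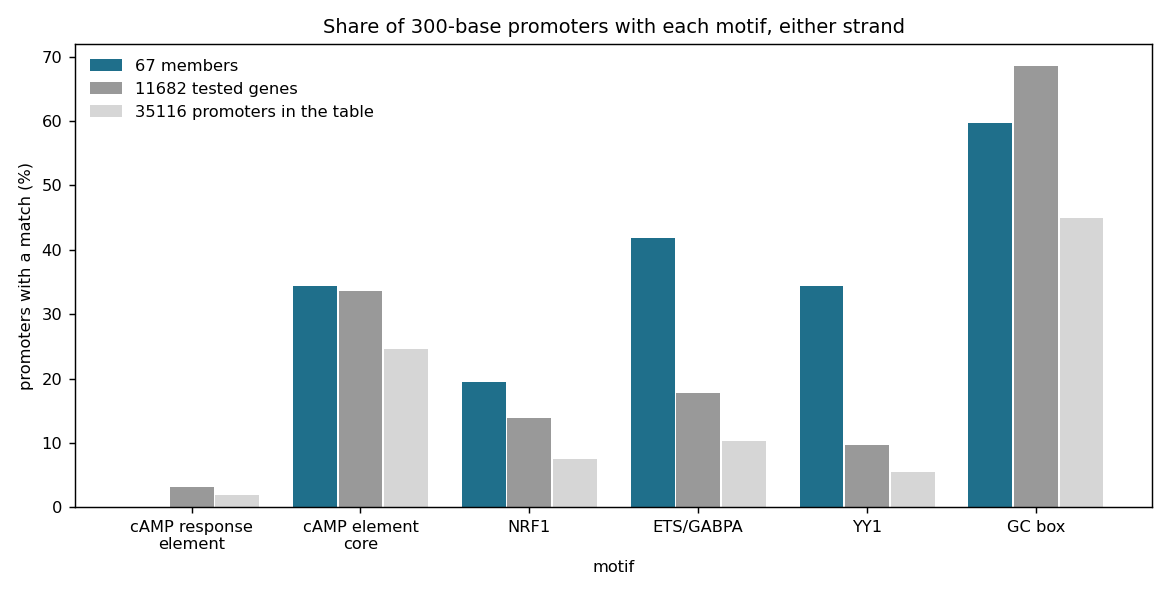
Share of promoters of 300 bases (vertical axis, percent) that hold each motif on either strand, for 67 members, 11682 tested genes and all 35116 promoters of the table. The ETS/GABPA (41.8%) and YY1 (34.3%) bars of the members stand above both backgrounds, and the bar of the full cAMP response element is at 0. The YY1 bars include letters at annotated start codons.

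The promoters of 5 members are shown up to base 30 after the start: MRPL42 and MRPS27 because they fell with the block, and 3 others as examples that hold these letters. MRPL42 lies at chr12:93467264-93467543 (plus strand), MRPS27 at chr5:72320211-72320490 (minus), MRPS18A at chr6:43687762-43688041 (minus), MRPS21 at chr1:150293611-150293890 (plus) and MRPL57 at chr13:21176408-21176687 (plus). Each is read 5′ to 3′ along its gene, and capitals mark ETS, YY1 or NRF1 letters on either strand, the ETS letters reading CTTCCGG on the other.
MRPL42: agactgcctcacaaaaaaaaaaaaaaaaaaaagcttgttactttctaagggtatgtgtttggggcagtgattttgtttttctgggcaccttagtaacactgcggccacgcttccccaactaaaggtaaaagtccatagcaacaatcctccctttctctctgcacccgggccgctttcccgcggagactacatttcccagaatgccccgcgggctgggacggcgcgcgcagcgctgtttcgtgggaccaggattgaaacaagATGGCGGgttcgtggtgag
MRPS27: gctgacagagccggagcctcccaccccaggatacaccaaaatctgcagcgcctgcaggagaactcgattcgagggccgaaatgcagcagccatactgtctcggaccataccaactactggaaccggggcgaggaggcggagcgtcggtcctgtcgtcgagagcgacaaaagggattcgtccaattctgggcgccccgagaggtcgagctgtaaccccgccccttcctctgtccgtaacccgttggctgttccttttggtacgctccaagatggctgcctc
MRPS18A: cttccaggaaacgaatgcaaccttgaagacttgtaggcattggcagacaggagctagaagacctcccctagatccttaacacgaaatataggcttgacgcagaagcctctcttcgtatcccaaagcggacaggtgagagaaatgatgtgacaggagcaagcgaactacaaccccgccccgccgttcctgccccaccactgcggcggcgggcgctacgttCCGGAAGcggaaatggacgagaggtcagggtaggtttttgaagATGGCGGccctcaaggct
MRPS21: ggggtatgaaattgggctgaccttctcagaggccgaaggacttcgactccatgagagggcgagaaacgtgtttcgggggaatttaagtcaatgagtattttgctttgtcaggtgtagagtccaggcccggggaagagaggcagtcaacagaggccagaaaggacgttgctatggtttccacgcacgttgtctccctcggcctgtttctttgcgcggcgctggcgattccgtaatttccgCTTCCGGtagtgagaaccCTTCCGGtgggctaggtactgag
MRPL57: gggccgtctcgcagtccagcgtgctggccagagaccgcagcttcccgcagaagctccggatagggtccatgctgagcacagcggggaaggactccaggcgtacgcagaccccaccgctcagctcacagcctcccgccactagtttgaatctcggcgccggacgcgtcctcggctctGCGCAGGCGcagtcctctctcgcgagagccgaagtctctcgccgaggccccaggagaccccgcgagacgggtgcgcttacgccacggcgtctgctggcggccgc
MRPL42 holds YY1 letters after its start and MRPS18A the same letters beside ETS letters before it, while MRPS21 holds 2 ETS matches and MRPL57 1 NRF1 match. MRPS27 holds none of the 3 motifs in this window, which says only that these letters are absent from it.

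The genes that work with the ribosome were read from 7 lists, chosen with earlier results of these data known. Without the block, 0 of their 76 tested genes passed FDR 0.05 in limma, and 2 had an unadjusted p under 0.05. The 5 further mitoribosome proteins, with names of another kind, had a median of -0.031 (4 lower): AURKAIP1 averaged 1009 ± 56.6 and 1023 ± 42.1, and GADD45GIP1 655.8 ± 57.1 and 600.7 ± 41.5 (SD, n = 3 each). The 25 tested genes for assembly and rRNA modification had a median of -0.0098, with 13 lower, and the 15 translation factors a median of 0.027, with 6 lower. The 9 regulators of nuclear genes for mitochondria had a median of -0.0076, with 5 lower. PPARGC1A, a coactivator of mitochondrial biogenesis, averaged 953.1 and 961.2 counts, and GABPA, which binds ETS letters, was lower in every pair (log2 fold change -0.13, SE 0.082; limma adjusted p 0.741, and 0.408 with the block). YY1, which binds the YY1 letters, was higher in every pair (0.070, SE 0.049; limma adjusted p 0.778, and 0.303 with the block).

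For mitochondrial transcription and RNA stability, the fitted change was below 0 in all 7 genes, with a median of -0.073, but only 4 were lower in pair 2, 3 were lower in every pair and only LRPPRC passed a test over all pairs. TEFM, a transcription elongation factor, averaged 81.7 ± 4.8 without and 83.1 ± 31.2 with isoproterenol (SD, n = 3 each), higher as a mean although its fitted change was -0.036. LRPPRC, which stabilizes mitochondrial mRNAs, had 5984, 6018 and 6077 normalized counts without and 5583, 5863 and 5483 with isoproterenol. The groups were separate, and LRPPRC fell with the block (log2 fold change -0.095; limma adjusted p 0.596 without and 0.0126 with the block). That call was lost without pair 1 (log2 fold change -0.093; limma adjusted p 0.0931) and without pair 3 (-0.069; 0.344). It was also lost in DESeq2 with the block (adjusted p 0.443).

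The transcripts that meet the ribosome inside the organelle showed 1 call. The rRNA MT-RNR1 had 27307, 29609 and 31744 counts without and 27479, 30861 and 30425 with isoproterenol. MT-RNR2 had 197255, 220299 and 240803 counts and then 201961, 230099 and 217536. In both the groups overlapped, with log2 fold changes of 0.0025 and -0.017. With the block, the sign of MT-RNR2 turned with the pair left out, from -0.056 without pair 2 (limma adjusted p 0.0044) to 0.048 without pair 3 (0.0102). These values count reads of the rRNA molecules that entered poly(A)-selected libraries, and how the selection acted on them was not tested. Of the 13 protein-coding mitochondrial genes, whose mRNAs the ribosome translates, 11 were lower (median -0.061). They were counted as separate genes, although MT-ATP8 shares 46 bases with MT-ATP6 and MT-ND4L 7 with MT-ND4 on the same strand. The median was 0.015, -0.0042 and -0.22 in pairs 1, 2 and 3, and untreated replicate 3 had the highest mitochondrial share. With the block (limma, FDR 0.05), 1 of these genes fell over all pairs, 9 fell without pair 1, and 9 fell and 1 rose without pair 2. Without pair 3, 0 of them passed and their median was 0.015. MT-ND6, a complex I subunit, had 420.8, 412.2 and 690.0 counts without and 299.3, 396.7 and 429.8 with isoproterenol, with overlapping groups. Alone among the 13 it lies on the minus strand, and its mean was their lowest, 441.5 counts against a median of 39152. How poly(A) selection acted on this transcript was not tested. MT-ND6 fell with the block (log2 fold change -0.41; limma adjusted p 0.782 without and 2.62e-04 with the block), but not without pair 3 (log2 fold change -0.27; adjusted p 0.108) or in DESeq2 with the block (0.540).

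**Figure D5:**
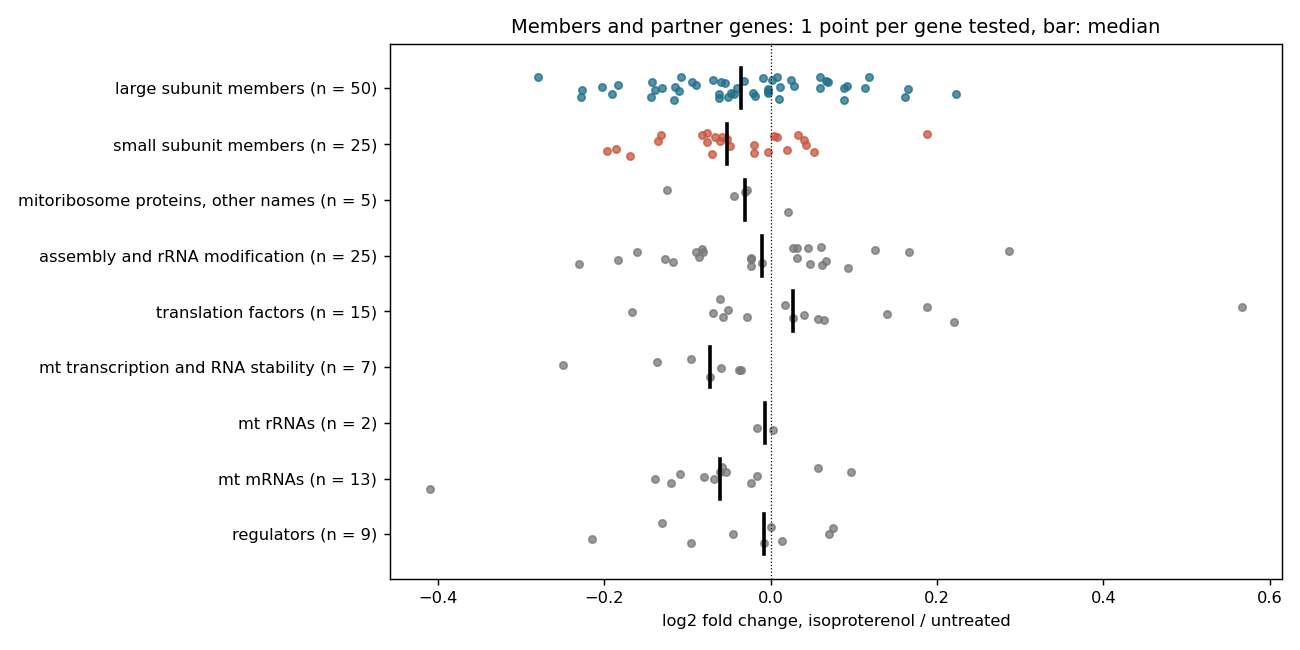
Log2 fold change (horizontal axis) of each tested gene of the members, by subunit, and of the 7 partner lists, with a bar at each median. Medians run from -0.073 (mitochondrial transcription and RNA stability) to 0.027 (translation factors), and the points spread on both sides of 0 in all lists but that of mitochondrial transcription and RNA stability.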

How the data were processed

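The labels describe poly(A) RNA and directional libraries, and the study's methods give alignment to GRCh38 with STAR and counting with featureCounts. FastQC, Subread, featureCounts and DESeq2 are named in the submitters' processing notes. Versions, the annotation release and the strand setting are not given in the sources used here. The deposited table gives each gene a signal in each sample: its read count divided by 1 DESeq2 size factor. All values above 0 were whole multiples of a single step per sample (tolerance 0.01), which gave back whole reads for 100% of them and a depth of 18116816 to 21488793 reads.

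Of 19823 genes, 18130 exceeded 5 recovered reads in 4 or more samples and were tested. The test was limma 3.58.1 (R 4.3.3; trend, robust) on log2(normalized count + 1), isoproterenol against untreated with 3 samples each, two-sided, with Benjamini-Hochberg adjustment over all genes tested. Fold changes on this scale are understated for genes with few counts. Count tests on the recovered reads (edgeR 4.0.16, DESeq2 1.42.0) were alternatives. Replicates of a group were distinct libraries.

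The labels number the replicates of both groups 1 to 3. Samples with the same number departed from their group means together. Their correlations were 0.269, 0.493 and 0.388 over 11587 genes averaging 100 or more, each above 0.1. Between samples of unlike number the correlations ran from -0.351 to 0.0058. The numbers were therefore treated as pairs in the pair differences and the blocked fits, while the main test was fitted without them. Blocked values, with the number as a block, stand beside a result where they alter a call.

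Positions, canonical transcripts and shared exons came from GENCODE release 44 and promoters from RefSeq, both GRCh38. Among symbols of the family, MRPS24 and MRPL53 were not analysed here. Named are members past FDR 0.05 in either limma fit, the 5 largest increases and decreases with all pairs in 1 direction and a mean of at least 10, the 5 highest and 5 lowest levels, members with set roles, up to 3 partner genes past FDR 0.05 per list, both rRNAs and RBM12. Genes outside this rule are examples, chosen after their values were seen. Members and lists were chosen with earlier results of these data known. Alternatives were the block, pseudocounts of 0.5 and 5, no filter, a mean of at least 50, TMM scaling, a GC and length correction, the count tests and leaving out each sample or pair.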

Additional observations from a re-analysis of the deposited data

How the results depend on the processing

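With replicate number as a block, 2 members passed FDR 0.05 in limma, in edgeR and with GC and length correction, against 0 in DESeq2 with the block and 0 without it, and 2 (MRPS27 lower, MRPS6 higher), 1 (MRPL42) and 0 did without pairs 1, 2 and 3. Leaving out pairs with the block was added after seeing the data. Partner genes past FDR 0.05 numbered 2 with the block in limma, in edgeR and with GC and length correction, 0 in DESeq2 with the block, and 9, 13 and 1 without pairs 1, 2 and 3. Over all genes, 885 passed with the block, 977 in edgeR with the block, 919 with GC and length correction and the block, 21 in DESeq2 and 143 in DESeq2 with the block. With 1 sample left out 2 to 67 genes passed, 67 of them without isoproterenol replicate 2, and with the block 531, 665 and 456 passed without pairs 1, 2 and 3. With 1 sample left out, the median change ran from -0.049 to -0.017 over the members, from -0.051 to -0.0087 in the large and from -0.053 to -0.017 in the small subunit. With the block, it was -0.015 over the members and -0.0080 in the large subunit without pair 3, and -0.036 in the small subunit without pair 2. Members with a change below 0 numbered 43 without untreated replicate 3 and 45 without isoproterenol replicate 2, against 50. Among the 17 members followed singly, the sign of 3 turned when 1 sample or pair was left out. MRPL58 ran from -0.12 to 0.095 without 1 sample (0.013 and 0.095 where it turned) and was 0.15 without pair 3. MRPS12 ran from -0.029 to 0.026 (0.022 and 0.026) and was 0.051 without pair 2, and MRPS30 was -0.0028 without pair 1. The cause was not tested. The block altered no other call among the members and partner genes. With 3 samples a group, depth limits the members under 50 counts most.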
